A study of Rattus norvegicus with 24 samples.

Results

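The endoplasmic reticulum (ER) receives newly made secreted and membrane proteins, folds them and hands them to the Golgi. Transcripts of this machinery were examined in RNA described as rat midbrain, as a set of 54 genes. The set consists of 6 subunits of the COPI coat, 7 genes of the COPII coat and early SNAREs, 5 cargo receptors, 10 genes of the translocon and its partners, 5 of signal peptidase, 5 of oligosaccharyltransferase, 15 chaperones and folding enzymes, and the transcription factor Xbp1. A gene belonged to it when a probe set of the array annotation carried its symbol and no other. All 54 were on the array with 75 of the 31099 probe sets, and all 54 passed the filter on low signals, as did 13079 genes in all. Where a gene had several probe sets, the brightest on average stands for it. The set was chosen by measured values of these data, among them the mating difference on 6 arrays of intact rats that are named by numbers. For those arrays the values of the set are given as a description, and no test on them is read as a result. Members were chosen with earlier results of these data known, so tests on the other arrays are no independent evidence either.

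RNA was measured on 24 Affymetrix rat genome arrays, and the study asked whether paced mating, in which the female controls the timing of contacts with the male, alters midbrain gene expression and whether ovaries and adrenals matter for it. All rats were adult female Long-Evans rats, and each set of 6 arrays holds 3 labelled paced and 3 labelled as exposed to the clean mating chamber. The number-named intact set (paced 2543, 2538 and 2531, chamber-exposed 2526, 2536 and 2539) and the Intact-named set (Intact-1 to Intact-6) come from proestrous rats with ovaries and adrenals. The OVX set comes from ovariectomized rats and the OVX/ADX set (paced 4123, 4125 and 2541, chamber-exposed 4124, 4126 and 2530) from ovariectomized and adrenalectomized rats, both primed with estradiol benzoate. The tissue was a gross dissection. The methods describe 6 intact rats, fewer than the 12 intact arrays, and neither they nor the labels say whether the sets share rats, so p-values measure the spread between arrays. The methods also give 6 OVX/ADX rats and state that a rat of this group died before its surgery was finished. Yet 6 arrays carry the OVX/ADX label. The study counts fewer microarrays than the 24 here.

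Proteins enter the ER through the Sec61 translocon, lose their signal peptide to signal peptidase and receive N-glycans from oligosaccharyltransferase. Chaperones of the ER lumen such as BiP (Hspa5) and Grp94 (Hsp90b1) then assist folding. COPII vesicles carry cargo forward to the Golgi and COPI vesicles carry escaped residents back, with KDEL receptors recognizing the residents. When unfolded protein accumulates, the unfolded protein response raises many of these genes through Xbp1 and ATF6. Professional secretory cells, among them hormone cells of the anterior pituitary, express this machinery at high levels.

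The response acts on short promoter elements, which are shown here because the chaperones carried the only called difference between gland groups. RefSeq promoters (build GRCr8) were found for 46 of the 54 genes. The 250 bases before the transcription start were searched on both strands. The ER stress response element ERSE (CCAAT and CCACG with 9 bases between them) lay in 7 of the 46, namely Calr, Canx, Creld2, Dnajc3, Hsp90b1, Hspa5 and Xbp1, against 0.0765% of all 27457 promoters. ERSE-II (ATTGG and CCACG with 1 base between them) lay in Hyou1 alone among the 46, against 0.0437% of all. The core TGACGTGG of the Xbp1-binding element UPRE, which holds the reverse complement of CCACG, the last bases of both ERSE forms, lay in Copb2, Hyou1 and Kdelr3, against 0.55% of all. Motifs are in capitals in the sequences of 5 ERSE genes and of Kdelr3, which had the largest mating difference of the set.
Hspa5 (chr3:38452766-38453015, plus strand): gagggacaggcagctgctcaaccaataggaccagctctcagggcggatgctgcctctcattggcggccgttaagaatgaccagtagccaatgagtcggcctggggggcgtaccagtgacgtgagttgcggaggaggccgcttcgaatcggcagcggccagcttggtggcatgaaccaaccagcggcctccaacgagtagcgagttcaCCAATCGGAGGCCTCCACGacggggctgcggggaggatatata
Hsp90b1 (chr7:23012294-23012543, minus strand): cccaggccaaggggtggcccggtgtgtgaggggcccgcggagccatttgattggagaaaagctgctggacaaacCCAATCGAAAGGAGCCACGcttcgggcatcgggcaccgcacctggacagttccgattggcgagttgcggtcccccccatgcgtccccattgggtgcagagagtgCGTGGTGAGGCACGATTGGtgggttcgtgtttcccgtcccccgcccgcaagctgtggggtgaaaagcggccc
Dnajc3 (chr15:102432417-102432666, plus strand): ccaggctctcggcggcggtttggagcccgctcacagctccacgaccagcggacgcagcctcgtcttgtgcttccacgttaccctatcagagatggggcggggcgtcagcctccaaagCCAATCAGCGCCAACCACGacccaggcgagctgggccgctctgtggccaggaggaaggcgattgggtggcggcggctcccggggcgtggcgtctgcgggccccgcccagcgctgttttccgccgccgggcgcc
Creld2 (chr7:121789134-121789383, plus strand): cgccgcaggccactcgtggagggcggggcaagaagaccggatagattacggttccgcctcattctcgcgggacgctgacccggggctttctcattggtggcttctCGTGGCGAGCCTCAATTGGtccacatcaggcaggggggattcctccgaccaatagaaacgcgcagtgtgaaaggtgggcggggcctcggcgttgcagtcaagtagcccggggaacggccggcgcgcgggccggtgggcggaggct
Xbp1 (chr14:84604373-84604622, plus strand): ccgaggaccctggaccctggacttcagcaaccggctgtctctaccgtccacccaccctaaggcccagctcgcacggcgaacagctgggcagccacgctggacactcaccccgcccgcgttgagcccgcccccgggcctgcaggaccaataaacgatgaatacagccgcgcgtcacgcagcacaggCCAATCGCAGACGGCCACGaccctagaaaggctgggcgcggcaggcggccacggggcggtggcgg
Kdelr3 (chr7:112959382-112959631, plus strand): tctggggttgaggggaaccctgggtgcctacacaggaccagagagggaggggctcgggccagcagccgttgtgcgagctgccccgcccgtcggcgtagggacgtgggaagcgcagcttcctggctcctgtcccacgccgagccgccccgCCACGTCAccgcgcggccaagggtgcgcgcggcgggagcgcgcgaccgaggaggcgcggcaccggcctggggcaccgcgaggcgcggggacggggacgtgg
Hsp90b1 holds 2 ERSE matches and the others 1 match each. A match describes letters only.

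By their lowest and median signals the arrays fall into 3 groups, taken here as normalization runs, which no label names. These are the number-named set, the Intact-named with the OVX set, and the OVX/ADX set, and levels are compared only within a run. The median gene of the set lay between the 88.0th and the 95.9th percentile of all probe sets on each array. The tissue label was checked with Th, the tyrosine hydroxylase of dopamine neurons. Its median percentile was 94.6 on the number-named and 92.3 on the OVX/ADX arrays but 33.5 on the Intact-named and 36.9 on the OVX arrays. The midbrain label of the Intact-named and OVX arrays is therefore in doubt. The mean of 7 pituitary hormone transcripts (Gh1, Prl, Fshb, Lhb, Tshb, Cga and Pomc), called the hormone index below, ranged from 7.29 to 11.42 and from 6.49 to 10.98 on the first pair of sets. On the second pair it was 4.84 to 5.05 and 4.89 to 5.05. Arrays 2541 and 2530, labelled OVX/ADX, have numbers within the range of the number-named intact arrays, and 2541 carried strong Gh1 and Prl signals, so the gland label of both is in doubt. The mating difference of the OVX/ADX set is given with and without them. Its slopes on the hormone index are given with single arrays left out, and none was fitted without both.

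On the number-named arrays, 52 of the 54 genes were lower on paced than on chamber-exposed arrays (47.3% of all genes). The median difference of the set was −0.34 on the log2 scale, against 0.01 over all genes. By the labels this direction is opposite to that of the study, which lists Dnajc3, and also Gh1 and Prl, as higher in paced mated rats. On these arrays Gh1 differed by −5.3 and Prl by −4.48. Whether the paced and chamber labels of this set are exchanged or the study's ratio was turned could not be settled from the files, and exchanged labels would turn the sign of every difference of this set. For 47 of the 54 genes every paced array was below every chamber-exposed array (10.3% of all genes), and the reverse held for 0 (6.91% of all genes). In limma 0 of the 54 and 0.0459% of all genes passed on the lower side. These counts describe the values that led to the set, and nothing is read from them.

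The largest difference was that of Kdelr3, a KDEL receptor that returns ER residents from the Golgi. Its signal was 5.74, 5.59 and 6.43 on the paced arrays 2543, 2538 and 2531 and 8.88, 8.33 and 7.74 on the chamber-exposed arrays 2526, 2536 and 2539. The groups did not overlap, and the difference was −2.40 (standard error 0.31), or 5.26-fold. Sec24d, a cargo-binding subunit of COPII, read 7.96, 8.14 and 8.45 on the paced and 9.79, 9.41 and 9.27 on the chamber-exposed arrays, a difference of −1.31 (standard error 0.16). Its partner Sec23b read 9.36, 9.37 and 9.57 against 10.83, 10.43 and 10.32, a difference of −1.09 (standard error 0.13). These 3 genes were the members beyond 2-fold, as were 0.436% of all genes on the lower side. Both COPII subunits were separated between the groups by more than the spread within either.

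Of the genes that mark the set, Dnajc3, an ER cochaperone of BiP, had the largest difference. It read 8.03, 7.95 and 8.37 on the paced and 9.17, 9.02 and 8.85 on the chamber-exposed arrays, a difference of −0.89 (standard error 0.13). Copb1, the beta subunit of the COPI coat, read 10.65, 10.55 and 10.59 against 11.04, 10.90 and 10.88. Copb2, the beta-prime subunit, read 10.56, 10.59 and 10.63 against 11.05, 10.86 and 10.82. Dad1, a subunit of oligosaccharyltransferase, read 10.52, 10.57 and 10.63 against 10.91, 10.86 and 10.91. The groups did not overlap for any of the 4 genes, and the last 3 differed by −0.34, −0.32 and −0.32, near the median of the set.

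The difference was unevenly spread over the roles. Cargo receptors had a median of −0.54 (5 of 5 lower), chaperones and folding enzymes −0.45 (15 of 15) and the translocon −0.45 (10 of 10). Oligosaccharyltransferase had −0.30 (4 of 5), the COPII group −0.26 (7 of 7), the COPI coat −0.23 (6 of 6) and signal peptidase −0.19 (4 of 5). Xbp1 stood at −0.31. Among the larger differences were Creld2, an ER stress-induced secreted factor, at −0.89, Kdelr2 at −0.84, and Sec61b, the small beta subunit of the translocon channel, at −0.79. The 7 genes whose groups overlapped were Copg1, Sar1b, Sec62, Sec11c, Stt3a, Canx and Tmed10. Stt3a, a catalytic subunit of oligosaccharyltransferase, differed by 0.05, Sec11c of signal peptidase by 0.01 and Canx, the membrane chaperone calnexin, by −0.02. The 20 further probe sets of 16 of the genes were all lower on paced arrays, among them one of Stt3a at −0.42.

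**Figure D1:**
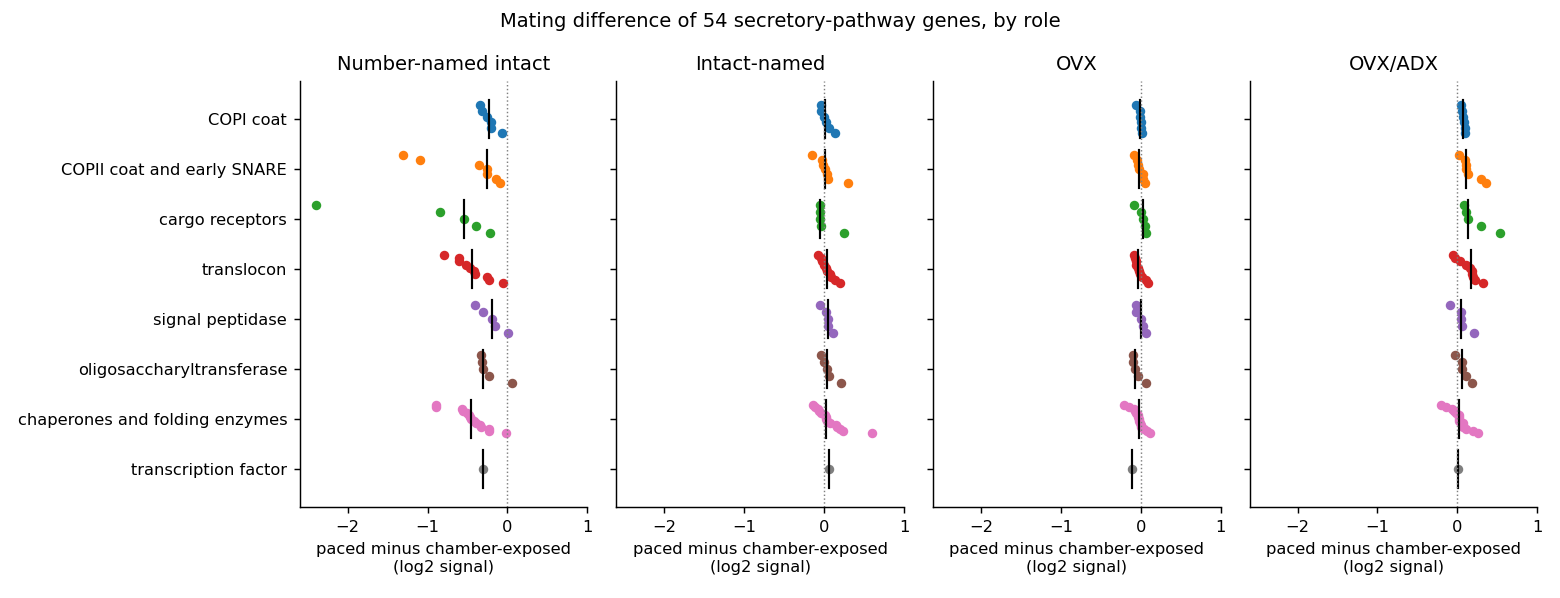
Paced minus chamber-exposed difference (log2 signal, horizontal axis) of the 54 genes in each of the 4 array sets, with 1 point per gene, rows by role and a black bar at the median of the role. Points lie left of 0 for 52 genes on the number-named arrays, down to −2.40, and around 0 on the Intact-named and OVX arrays.

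Pituitary transcripts moved in the same direction on these arrays, and their part in the result was not tested. All 7 hormones were lower on paced arrays with no overlap, and 16 of 17 other anterior pituitary genes were lower, 11 of them with no overlap. The mean of these other genes was 7.79 to 8.16 on paced and 8.46 to 8.69 on chamber-exposed arrays. Markers of meninges and fibroblasts were lower for 8 of 8 genes and those of dopamine neurons for 12 of 12, of which 0 and 2 had no overlap. In such bulk RNA, fewer cells of a type and less RNA per cell cannot be told apart.

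On array 2531, labelled paced, Gh1 (growth hormone) read 13.33 and Prl (prolactin) 13.93, within 0.71 and 0.32 of the chamber-exposed means and 6.88 and 6.24 above the mean of the other paced arrays. Fshb and Tshb, subunits of follicle-stimulating and thyroid-stimulating hormone, each lay 0.04 above the mean of the other paced arrays and 2.18 and 1.83 below the chamber-exposed mean. Lhb, Cga and Pomc lay between, at 1.23, 0.86 and 0.39 above the mean of the other paced arrays. They were 1.48, 1.6 and 0.75 below the chamber-exposed mean. On this array 50 of the 54 genes were below every chamber-exposed array (27.4% of all genes), and 47 were closer to the mean of the other paced arrays than to the chamber-exposed mean. The share of all genes closer to the other paced arrays was not counted, so nothing is read from the 47. Kdelr3 lay 0.77 above the mean of the other paced arrays and 1.88 below the chamber-exposed mean. Array 2531 is among the arrays whose values led to the set, so these values are a description. Without array 2531 the median difference of the set was −0.34, with 49 genes not overlapping (19.1% of all genes).

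**Figure D2:**
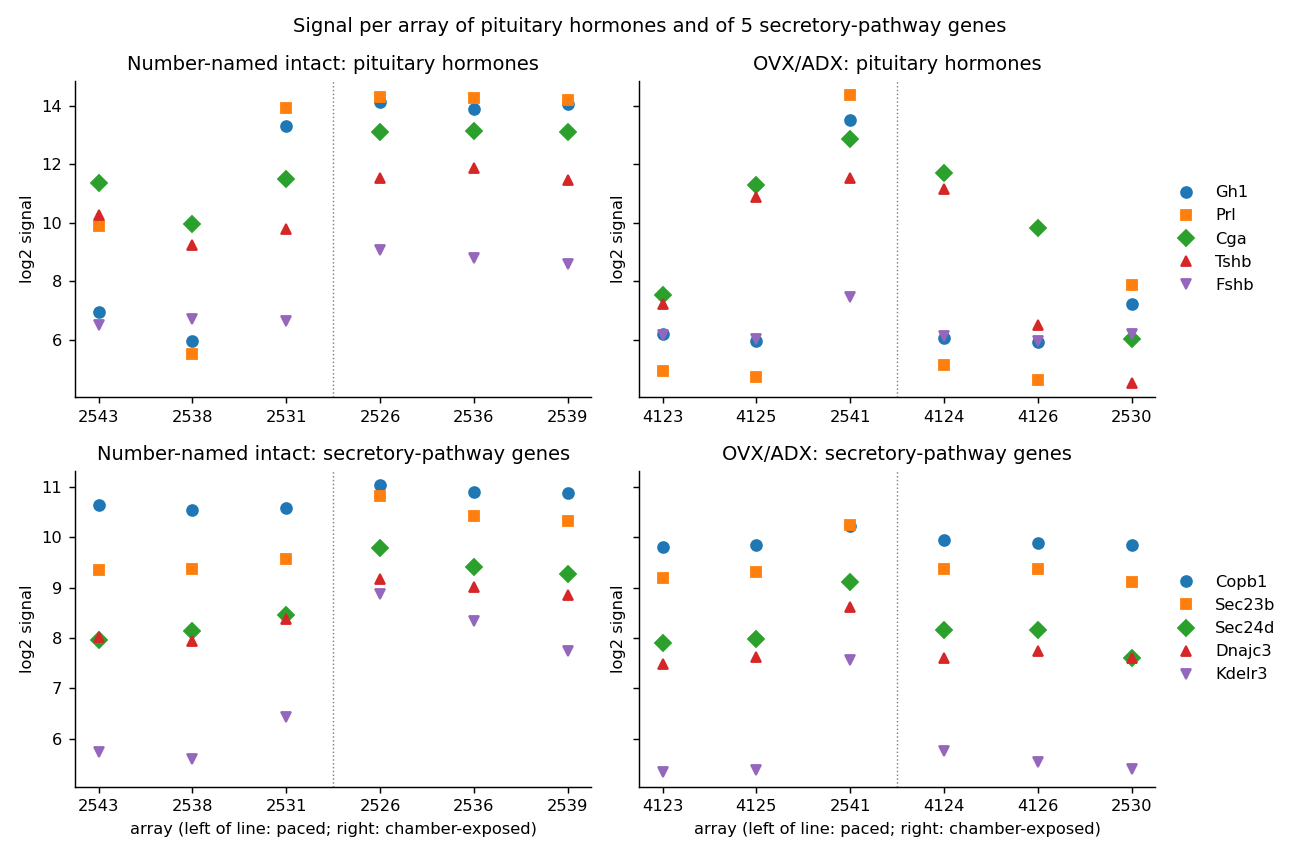
Log2 signal of 5 pituitary hormones (top) and 5 genes of the set (bottom) on each number-named intact array (left) and OVX/ADX array (right), with paced arrays left of the dotted line. On 2531 Gh1 and Prl are near the chamber-exposed arrays, while Cga, Tshb, Fshb and the secretory genes are below every chamber-exposed array. On 2541 all of them are the highest of their set.

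On the Intact-named arrays 33 of 54 genes were higher and 21 lower on paced arrays (62.3% of all genes were higher and 37.7% lower), with a median of 0.02 against 0.04 over all genes. These values depended on Intact-1, without which 18 genes were higher and the median was −0.05. With any 1 array left out, 18 to 42 genes were higher. None passed the threshold in limma (adjusted p under 0.05, 0.0% of all genes), 1 gene was higher and 0 lower at an unadjusted p under 0.05 (4.21% and 1.38% of all genes), and a plain per-probe-set test also called 0. The higher gene was Hyou1, a large ER chaperone of the Hsp70 family, which read 8.76, 8.49 and 8.23 on Intact-1, Intact-3 and Intact-5 and 7.92, 7.88 and 7.89 on the chamber-exposed Intact-2, Intact-4 and Intact-6. Its groups did not overlap, with a difference of 0.60 (standard error 0.14, limma adjusted p = 0.417) and from 0.465 to 0.727 when any 1 array was left out. The other probe set of Hyou1 stood at 0.21 with a standard error of 0.17 (limma adjusted p = 0.797).

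Copg1 of the COPI coat and Hsp90b1 were the other genes with every paced array higher, so 3 of 54 against 9.85% of all genes, and Canx had every paced array lower (1 of 54 against 3.4% of all genes). The next highest differences were those of Sec31a, an outer COPII subunit, at 0.30 and of the cargo receptor Tmed10 at 0.25, and the lowest were Sec24d at −0.15, Calr at −0.13 and P4hb at −0.12. None of these 5 passed. Kdelr3, foremost on the number-named arrays, differed by −0.05 here and read 6.33, 5.94 and 5.41 on paced and 5.81, 6.01 and 6.01 on chamber-exposed arrays. Dnajc3 read 8.85, 8.24 and 7.79 against 8.40, 8.23 and 8.01, a difference of 0.08 (standard error 0.26, limma adjusted p = 0.962). Copb1 differed by 0.06, Copb2 by −0.04 and Dad1 by 0.07, each with a standard error near 0.10. Over both intact sets, with the set as a term, 47 of 54 genes were lower and the median was −0.15, a value that holds the number-named arrays and is a description.

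On the OVX arrays 21 genes were higher and 33 lower on paced arrays (53.4% of all genes were higher), and differences ran from −0.21 to 0.11. None passed the threshold in limma or in the plain test (0.0% of all genes), and 0 reached an unadjusted p under 0.05 (0.856% of all genes higher, 1.55% lower). Copz1 of the COPI coat, the translocon partner Sec63 and the calcium-binding chaperone calreticulin (Calr) had every paced array lower (3 of 54 against 3.26% of all genes), and 0 had every paced array higher (3.1% of all genes). The most negative difference was that of Sdf2l1, an ER chaperone partner, at −0.21 (standard error 0.11), followed by Calr at −0.15 and Xbp1 at −0.10. The markers Copb1, Copb2, Dad1 and Dnajc3 differed by −0.01, 0.00, −0.10 and 0.04. Choroid plexus markers were lower on paced OVX arrays for 8 of 8 genes, 6 of them with no overlap (list mean 7.27 to 8.36 against 8.71 to 9.0), and their part in these values was not tested. The difference of mating effects between Intact-named and OVX rats passed for 0 of 54 genes in limma (0.0% of all genes), with 0 at an unadjusted p under 0.05 (2.29% of all genes positive, 0.749% negative). For Hyou1 that difference was 0.49 (standard error 0.24, limma adjusted p = 0.998).

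Among OVX/ADX rats 45 genes were higher and 9 lower on paced arrays (48.9% of all genes were higher and 51.1% lower), with a median of 0.07. None passed in limma or the plain test (0.0% of all genes), and 0 reached an unadjusted p under 0.05 (0.826% of all genes higher, 1.33% lower). The highest differences were those of Kdelr3 at 0.53 (standard error 0.56), Sec24d at 0.36 (standard error 0.33) and Sec61b at 0.32 (standard error 0.23). Each difference was close to its standard error (limma adjusted p = 1.0 for all 3). Paced arrays 4123, 4125 and 2541 read 5.33, 5.37 and 7.57 for Kdelr3, and chamber-exposed arrays 4124, 4126 and 2530 read 5.75, 5.54 and 5.4. The lowest differences were those of Hyou1 at −0.20, Sdf2l1 at −0.14 and Sec11c at −0.09. For Kdelr3 array 2541 alone was high, and the other paced arrays were below every chamber-exposed array. Only Ssr2 of the translocon-associated complex had every paced array higher (2.82% of all genes), and only Canx every paced array lower (3.98% of all genes).

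Without 2541 the direction turned, with 18 genes higher and 36 lower (46.6% of all genes were higher) and a median of −0.04. Kdelr3 then differed by −0.21, Dnajc3 by −0.09, Copb1 by −0.07 and Sec24d by −0.03. With both 2541 and 2530 left out, an alternative chosen after the data were seen, the median was −0.05 and 9 genes were higher.

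Array 2541 was singled out after its values were seen. On it, 52 of the 54 genes were above all 5 other OVX/ADX arrays (20.8% of all genes), and the exceptions were Stt3a and Canx, each by its brightest probe set. Kdelr3 was 2.10 above the mean of the other arrays, Sec24d 1.15, Dnajc3 0.99, Sec23b 0.98, Sec61b 0.89 and Kdelr2 0.87. Dnajc3 read 8.61 on 2541 and 7.49 to 7.74 on the others, and Sec23b read 10.25 against 9.12 to 9.37. Hyou1 read 9.62 against 8.57 to 9.17. These gaps were larger than the whole range of the other arrays, except for that of Hyou1.

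By role, cargo receptors were a median of 0.49 above the other arrays on 2541, the translocon 0.44 and chaperones 0.36. The COPII group was 0.31 above, oligosaccharyltransferase 0.28, Xbp1 0.26, COPI 0.23 and signal peptidase 0.19. All 7 hormones were highest on 2541, with Gh1 at 13.52 against 5.93 to 7.24 and Prl at 14.36 against 4.62 to 7.89, as were 12 of 17 other anterior pituitary genes. Of the choroid plexus markers 1 of 8 was highest there, of the meningeal 0 of 8, of the dopamine neuron markers 2 of 11, of cortex and hippocampus 1 of 12 and of general neurons 0 of 8. The part of the pituitary transcripts in the result was not tested.

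Whether the machinery followed the hormones per array was asked with the slope of each gene on the hormone index. On the OVX/ADX arrays 53 of 54 slopes were positive, with a median of 0.07 log2 units per unit of index against 0.00 over all genes. In limma 5 genes passed with a positive slope (0.436% of all genes) and 0 with a negative one (0.00765% of all genes). These calls are no independent evidence, since the members were chosen with earlier results of these data known. The index was 10.98 on 2541 and 6.49 to 7.71 on the other arrays, so 2541 weighs most in each slope. Kdelr3 had a slope of 0.48 (standard error 0.05, adjusted p = 0.0285 from limma) and Sec23b 0.23 (standard error 0.03, adjusted p = 0.031 from limma). Kdelr2 had 0.20 (limma adjusted p = 0.031), Sec61b 0.20 (limma adjusted p = 0.0311) and Ssr4, a subunit of the translocon-associated complex, 0.14 (limma adjusted p = 0.0355). Dnajc3 at 0.22 and Sec24d at 0.28 missed the threshold (limma adjusted p = 0.056 for both). The number of calls depended on single arrays. In limma 0 of the 54 genes passed without 2541, without 4123 or without 2530, 1 passed without 4125 and 9 without 4126, and the plain test called 0. Over all genes 0 to 65 passed in either direction with 1 array left out, so calls across the whole array shifted too. Without 2541, 46 of 54 slopes were positive with a median of 0.05, and Kdelr3 fell to a slope of 0.16 (limma adjusted p = 0.811). Ssr4 had slopes of 0.135 to 0.148 whichever array was left out.

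The slopes of other marker lists were fitted in the same way on the OVX/ADX arrays, and their part in the slopes was not tested. Slopes were positive for 16 of 17 other anterior pituitary genes (median 0.12, 5 called), for 8 of 8 markers of meninges and fibroblasts (median 0.13, 0 called) and for 10 of 11 of dopamine neurons (median 0.07, 1 called). They were negative for 9 of 12 markers of cortex and hippocampus, 5 of 8 of choroid plexus and 5 of 8 of general neurons, each list with a median of −0.02. On the number-named arrays slopes were positive for 8 of 8 markers of meninges and fibroblasts and 11 of 11 of dopamine neurons.

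For the 4 marking genes the correlation with the index over these 6 arrays was r = 0.96 for Copb1, 0.94 for Copb2, 0.95 for Dad1 and 0.94 for Dnajc3. The exact permutation p (two-sided, over all pairings) was 0.0264, 0.0597, 0.0792 and 0.0625, and 0.0792 for each after Benjamini-Hochberg adjustment over the 4. Spearman's rho was 0.83, 0.71, 0.49 and 0.77, with exact permutation p of 0.0583, 0.136, 0.356 and 0.103 (adjusted 0.181, 0.181, 0.356 and 0.181). Without arrays 4124 and 2541, which had the index farthest from the median, r was 0.07, −0.27, 0.30 and 0.12. The relation rested on those arrays.

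Other OVX/ADX arrays held some hormones without the others. Cga, the shared alpha subunit of the glycoprotein hormones, read 11.71 on 4124 and 11.28 on 4125, and Tshb 11.17 and 10.89, while Gh1 was 6.06 and 5.96 on them. The median of the set was 10.30 on 4124 and 10.28 on 4125, against 10.22 to 10.28 on 4123, 4126 and 2530 and 10.60 on 2541. On 4123, 4126 and 2530 Cga read 7.53, 9.82 and 6.04 and Gh1 6.19, 5.93 and 7.24.

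On the number-named arrays 52 of 54 slopes were positive with a median of 0.09, and the largest were Kdelr3 at 0.73, Sec24d at 0.39 and Sec23b at 0.32, given as a description since the index differed between the groups with the labels. These arrays led to the set, so no correlation of their slopes with those of the OVX/ADX arrays is given, and the plot of both shows values only. Stt3a (−0.03) and Canx (0.00) had the lowest slopes here, and both were at 0.00 on the OVX/ADX arrays. These slopes are of the brightest probe sets. The other probe set of Stt3a had a mating difference of −0.42 on the number-named arrays and 0.24 (standard error 0.18) on the OVX/ADX arrays. The index of the Intact-named and of the OVX arrays varied little and no slope was fitted. There the median correlation of the genes with the index over 6 arrays was −0.48 and −0.07, against 0.84 and 0.92 on the number-named and OVX/ADX arrays, given as a description. On the Intact-named and OVX arrays Prl lay at median percentiles of 4.2 and 4.0 and Gh1 at 33.2 and 33.3. With hormone signals this low, correlations on those arrays cannot tell whether the genes follow the hormones.

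**Figure D3:**
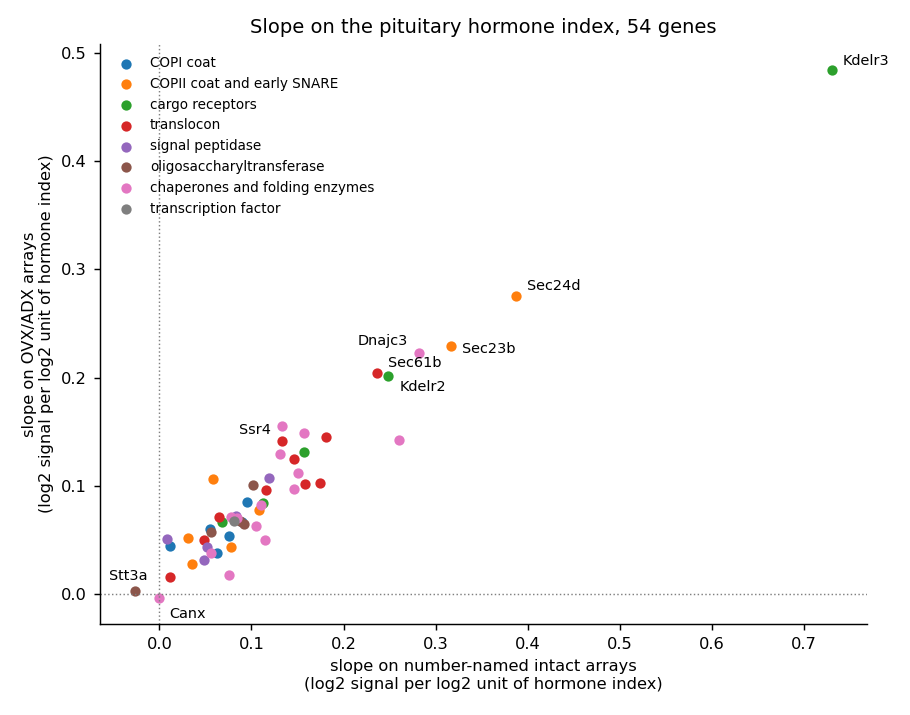
Slope of each of the 54 genes on the pituitary hormone index (log2 signal per log2 unit of index) on the 6 number-named intact arrays (horizontal axis) and the 6 OVX/ADX arrays (vertical axis), with 1 point per gene coloured by role. Kdelr3 is highest on both axes (0.73 and 0.48), and Stt3a and Canx lie near 0 on both.

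The comparison of glands within arrays taken as 1 run, Intact-named against OVX rats with the mating label as a term, was led by chaperones. Titles of the Intact-named and OVX arrays carry different number prefixes of unstated meaning, so gland and prefix cannot be told apart. The midbrain label of these arrays is in doubt, as given above. In this comparison 41 genes were higher and 13 lower in intact rats (53.3% of all genes were higher), with a median of 0.06 against 0.01 over all genes. Without Intact-1, 31 genes were higher and the median was 0.0143, near that of all genes. In limma 3 genes were higher (0.818% of all genes) and 0 lower (0.321% of all genes), all of them chaperones and folding enzymes. Hspa5 (BiP, the main Hsp70 chaperone of the ER) read 12.28, 12.04, 12.03, 12.09, 12.03 and 12.17 on Intact-1, 3, 5, 2, 4 and 6 and 11.65, 11.52, 11.66, 11.80, 11.60 and 11.67 on OVX-1, 3, 5, 2, 4 and 6. Every intact array was above every OVX array, by 0.46 on average (standard error 0.06), or 1.37-fold (limma adjusted p = 0.0166).

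Pdia4, a protein disulfide isomerase, averaged 9.23 ± 0.24 (SD, n = 6) on Intact-named arrays against 8.76 ± 0.11 (SD, n = 6) on OVX arrays. The lowest, median and highest arrays were 9.03, 9.15 and 9.65 against 8.62, 8.77 and 8.93, with no overlap and a difference of 0.47 (standard error 0.10, limma adjusted p = 0.0407). Manf, a secreted factor held in the ER that is raised by ER stress, was 10.41 ± 0.12 (SD, n = 6) against 10.12 ± 0.06 (SD, n = 6). Its arrays ran from 10.24 to 10.62 and from 10.06 to 10.22 without overlap and with a difference of 0.29 (standard error 0.06, limma adjusted p = 0.0454). Hspa5 was 0.51 higher among paced and 0.41 higher among chamber-exposed rats, Pdia4 0.58 and 0.36 and Manf 0.34 and 0.25, each with no overlap within either label.

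**Figure D4:**
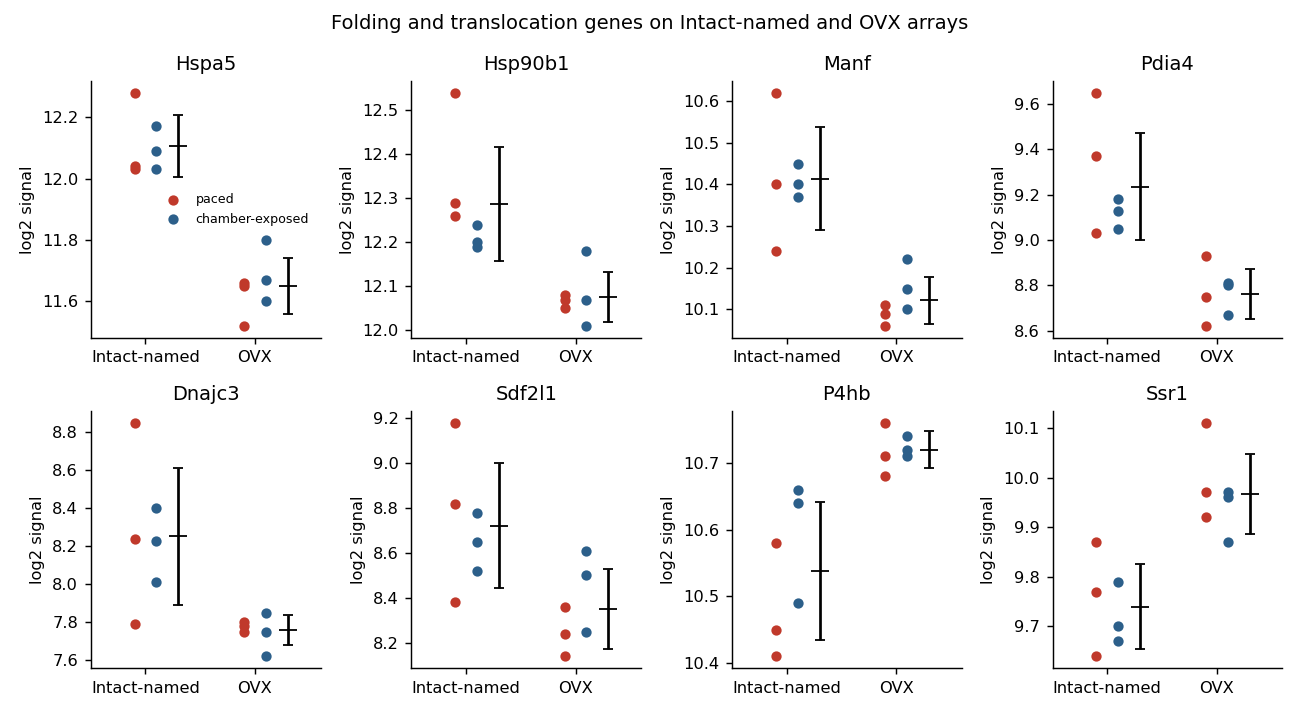
Log2 signal of 8 genes on the 6 Intact-named and 6 OVX arrays, with paced arrays in red, chamber-exposed arrays in blue, and the mean with its SD (n = 6) in black. Hspa5, Hsp90b1, Manf and Pdia4 are higher on every intact array, and P4hb and Ssr1 lower, while Dnajc3 and Sdf2l1 overlap.

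Hsp90b1 was the fourth gene with every intact array higher (4 of 54 against 1.9% of all genes), at 0.21 (limma adjusted p = 0.106). Dnajc3 had the largest difference, 0.49 (standard error 0.14), but Intact-5 at 7.79 lay among the OVX arrays, which ran from 7.62 to 7.85 (limma adjusted p = 0.0938). Sdf2l1 at 0.37, Creld2 at 0.33 and Xbp1 at 0.21 did not pass either. P4hb, another protein disulfide isomerase, and Ssr1 of the translocon-associated complex had every intact array lower (2 of 54 against 0.795% of all genes), at −0.18 (limma adjusted p = 0.102) and −0.23 (limma adjusted p = 0.0673), though a further Ssr1 probe set stood at 0.05.

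By role, 13 of 15 chaperones and folding enzymes had a positive difference, with a median of 0.19. The median was 0.09 for the COPII group, 0.07 for oligosaccharyltransferase, 0.04 for the translocon, 0.00 for COPI, −0.01 for cargo receptors and −0.02 for signal peptidase. Copb1, Copb2 and Dad1 differed by 0.10, −0.03 and 0.04. Kdelr3 (0.08), Sec23b (0.01) and Kdelr2 (0.01), foremost on array 2541, were near 0 here. The signal of Kdelr3 was low, at median percentiles of 33.6 on the Intact-named and 31.8 on the OVX arrays. Of the 7 genes with ERSE in the promoter 6 had a positive difference, with a median of 0.21 and a range of −0.08 to 0.49, and of the 39 others with a promoter 28 did, with a median of 0.04. All of the 7 but Xbp1 are chaperones and folding enzymes, whose median was 0.19, so ERSE and role cannot be told apart here. On the number-named mating difference the same groups had medians of −0.34 and −0.32. Of the called genes, Pdia4 has no match to the motifs in its window, and no promoter was found for Manf.

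**Figure D5:**
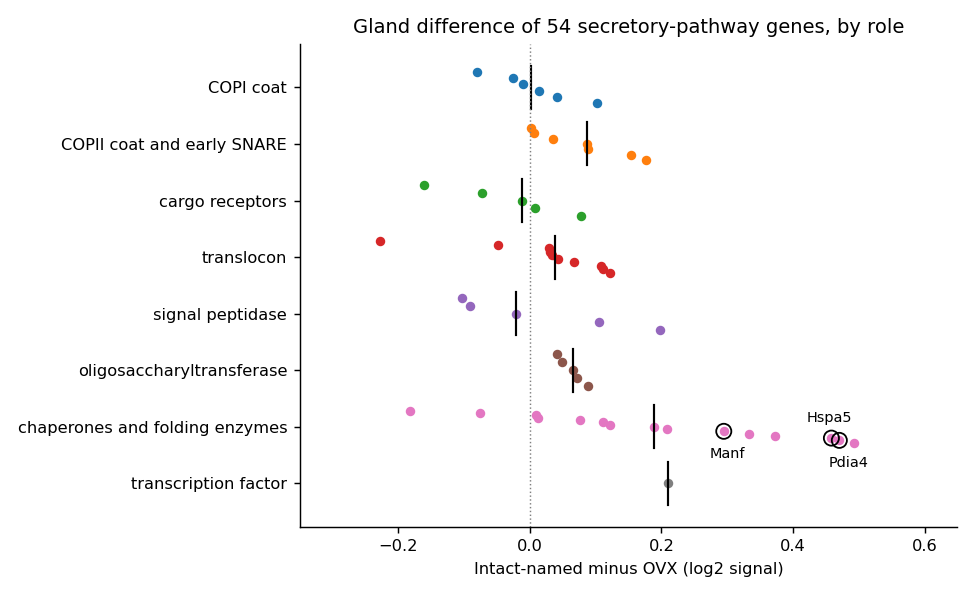
Intact-named minus OVX difference (log2 signal, horizontal axis) of the 54 genes, with 1 point per gene, rows by role, a black bar at the median of the role and rings around the 3 genes that passed in limma. The ringed genes Hspa5, Pdia4 and Manf lie at 0.46, 0.47 and 0.29 among the chaperones, whose median is 0.19.

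The calls depended on single arrays. Without OVX-4, 0 genes passed, and Hspa5 was at 0.44 (limma adjusted p = 0.062). Of the arrays, OVX-4 had the highest Th of its run, at 8.60 against 5.69 to 7.22 on the other 11. Hspa5 alone passed when any other array but Intact-5 or OVX-6 was left out, 3 passed without OVX-6 and 5 without Intact-5, and the plain test kept 1. Over all genes 0 to 202 passed in either direction with 1 array left out, so calls across the whole array shifted too. Pituitary hormone transcripts did not separate these groups, with an index of 4.84 to 5.05 against 4.89 to 5.05. Other marker lists did move with the glands, and their part in the result was not tested. Markers of meninges were lower in intact rats for 8 of 8 genes (list mean 7.48 to 9.26 against 8.27 to 9.93), of choroid plexus for 7 of 8 (7.15 to 8.77 against 7.27 to 9.0) and of dopamine neurons for 11 of 12, and those of cortex and hippocampus were higher for 10 of 12 (9.89 to 10.20 against 9.70 to 10.17).

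Other genes of the same pathways were taken from 4 lists. On the number-named arrays, 14 of 16 genes of the unfolded protein response and ER degradation, 25 of 28 further coat and transport genes, 17 of 18 further targeting and glycosylation genes and 20 of 22 further folding enzymes were lower on paced arrays, against 47.3% of all genes. The largest values there were −1.97 for Creb3l1, an ER stress transcription factor of secretory cells, −1.74 for the prolyl isomerase Fkbp11 and −1.35 for Copz2, a second zeta subunit of COPI. Rcn3 and Nucb2, calcium-binding proteins at −1.07 and −1.0, are also in the study's own list of mating genes. That list gives both as higher in paced mated rats, by the labels the opposite direction. The lists were chosen with earlier results of these data known, and these arrays led to the set. The counts on them are therefore a description and no independent evidence. In the OVX/ADX trend 1, 1, 0 and 2 genes of the lists passed in limma, all positive (0.436% of all genes), with slopes of 0.53 for Creb3l1, 0.32 for Copz2 and 0.44 for Fkbp11 the largest of their lists. On array 2541, 11 of 16, 20 of 28, 13 of 18 and 13 of 22 were above every other OVX/ADX array, against 20.8% of all genes. In Intact-named against OVX rats the unfolded protein response list had 7 genes higher and 9 lower (median −0.02), and Ddit3, a stress-induced transcription factor, was at 0.23, while the other 3 lists had medians of 0.02, 0.01 and 0.07 (53.3% of all genes were higher).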

How the data were processed

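RNA from tissue described as gross midbrain dissections was hybridized to 24 Affymetrix arrays. The authors deposited log2 signals per probe set, summarized by RMA in Affymetrix Expression Console 1.4 per the submitters' processing notes. Array ranges were taken to show 3 normalization runs, which no label names and which cancel in differences within a run. The GCRMA values that the methods name were not analysed here. RMA pulls low signals together, which understates their differences. Precision is set by how many arrays a group has, as arrays have no read depth. The 57 control probe sets were left out, as were probe sets that reached the 20th percentile of an array in fewer than 3 arrays, which left 27035. Probe sets were named from the platform annotation (20832 with 1 symbol, 436 with several and 9831 with none). The probe set of a gene that was brightest on average stood for it.

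Differences (paced minus chamber-exposed, or Intact-named minus OVX) and slopes on the hormone index were fitted with limma 3.58.1 in R 4.3.3 (lmFit and eBayes) with Benjamini-Hochberg adjustment over all 27035 probe sets at a threshold of 0.05. The scripts were tested on simulated data. Permutation tests used scipy 1.17.1. Of single genes only the 4 markers were tested by permutation, since 3 arrays against 3 cannot go below p = 0.1. The plain test is the same fit without moderation. Promoters come from RefSeq (GRCr8). Named were the 4 markers, genes past the threshold, and the 3 most positive and 3 most negative of each fit. Genes outside that rule, and array 2541, were named after their values were seen. Members and lists were chosen with earlier results of these data known. The title numbers of Intact-named and OVX arrays were not treated as pairs. Alternatives were other filters, quantile or median normalization, other eBayes settings, the mean over probe sets, other hormone indices, a replicate block and leaving out each array.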

Additional observations from a re-analysis of the deposited data

Results flagged for a closer look

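A single array lay far from the other 5 of its set in 9 of the 44 sets of values examined (gap to the nearest array relative to the whole range, Dixon's 95% value), where chance flags about 1 in 20 of independent sets. These sets are not independent, and all flags but that of OVX-5 fell on array 2541. The count is therefore not weighed against chance. On array 2541 of the OVX/ADX rats, the median of the 54 genes was 10.60 and the next array 10.30, and the hormone index was 10.98 and the next 7.71. On the same array Copb1 read 10.22 (next 9.94), Copb2 10.60 (next 10.33), Dad1 10.99 (next 10.73), Dnajc3 8.61 (next 7.74), Kdelr3 7.57 (next 5.75) and Manf 10.86 (next 10.47). Array OVX-5 had the lowest median of the 54 genes among the OVX arrays, 10.04 against 10.15 for the next.

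In 3 genes every paced array lay on one side of the chamber-exposed arrays in one set and on the other side in another. The share of all genes that did so was not counted. On the number-named arrays, which led to the set, 47 of the 54 genes were lower with no overlap (10.3% of all genes). Every paced array was higher for 9.85% of all genes on the Intact-named and 2.82% on the OVX/ADX arrays. Ssr2 was 0.19 higher on paced OVX/ADX arrays and −0.52 on number-named intact arrays. Hsp90b1 was 0.16 higher on paced Intact-named arrays and −0.34 on number-named arrays. Hyou1 was 0.60 higher on paced Intact-named arrays and −0.47 on number-named arrays. These differences between sets, which cross normalization runs, were not tested.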

How the results depend on the processing

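Over the alternatives, 328 summary values stayed within the spread between arrays or within 1.5 times the reported count and 44 moved. No called gene changed sign, but medians of the 54 genes that carry no test did. The Intact-named mating median (0.0241) was −0.0467 without Intact-1, and the OVX/ADX mating median (0.0733) was −0.0382 without 2541 and −0.0529 without 2541 and 2530. On the number-named mating difference, 0 genes were called lower as reported (0.0459% of all genes). There 1 was called lower with array medians subtracted, 3 with trend and robust eBayes, and 0 to 5 with 1 array left out (4 without 2531, 5 without 2539). Those arrays led to the set, so nothing is read from these counts or from those of the number-named trend. For Intact-named against OVX, 1 gene was called lower with the 50th percentile filter and 1 with quantile normalization. The genes called higher there numbered 1 in the plain test and 0 to 5 with 1 array left out (0 to 202 over all genes, either direction). For the number-named trend, 1 gene was called higher as reported (0.245% of all genes). There 0 were called with quantile normalization, 0 in the plain test, 0 with Gh1 alone as index, 19 with the other anterior pituitary genes, and 0 whichever array was left out. The median of that trend was 0.037 with Gh1 alone, 0.48 with the other genes, and 0.0768 to 0.131 with 1 array left out. For the OVX/ADX trend, 14 genes were called with trend and robust eBayes, 0 in the plain test, 11 with the mean over probe sets, 12 with the other anterior pituitary genes, and 0 to 9 with 1 array left out. Its median was 0.0395 with Gh1 alone, 0.399 with the other genes, and 0.054 to 0.0809 with 1 array left out. Over all genes this trend called 0 to 65 in either direction with 1 array left out. All-gene counts for the other settings are not given here. Slopes on another index have another unit, and the cause of the other shifts was not tested. Of single values 1323 stayed, 88 moved, 12 became stronger and 52 weaker. The replicate block on the title numbers of Intact-named and OVX arrays called 2 genes higher (median 0.0578), with Manf lost at adjusted p = 0.0665 in limma. Same-numbered arrays correlated at 0.018 to 0.314, and not every array correlated best with its own number, so the numbers were not taken as pairs.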
